A study of Mus musculus with 9 samples.

Results

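The genes described here are 10 members of the mouse muscle atrophy programme, taken by symbol: 4 subunits of ubiquitin ligases or single-chain ligases (Fbxo32, Trim63, Fbxo30 and Fbxo21), 2 FOXO transcription factors (Foxo1 and Foxo3), and Klf15, Ddit4, Cdkn1a and Eda2r. All 10 were found among the 55401 genes counted in each library, with 266 to 22686 reads each per library, and all 10 passed the filter on low counts that left 18514 genes for testing. The 9 libraries were made from total RNA of a calf muscle, the gastrocnemius, taken from FVB mice without a mutation (wild type) at 2 to 3 months of age, 7 weeks after it was injected. Of these, 3 received AAV-GFP-MBNL1∆, an adeno-associated virus carrying green fluorescent protein (GFP) and a form of the RNA-binding protein MBNL1 that the series title describes as a decoy for the CUG repeats of myotonic dystrophy. Another 3 received AAV-GFP, the vector with GFP alone, and 3 received saline. No group carried a myotonic dystrophy mutation, and the promoter in the vectors is not given in the sources used here. Whether a group's libraries are from different mice is not stated, and a p-value here reflects how much the libraries varied, which may be technical.

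In muscle, wasting is driven largely by protein breakdown through the ubiquitin-proteasome system, in which a ligase marks a protein with ubiquitin and the proteasome degrades it. Insulin and IGF1 signalling through AKT keeps the FOXO factors out of the nucleus. When that signal falls, as in fasting, denervation or disuse, FOXO1 and FOXO3 enter the nucleus and switch on ligase and autophagy genes, while glucocorticoids act on several of the same genes through their receptor. Atrogin-1 (Fbxo32) and MuRF1 (Trim63) are the ligases most often used as markers of that state.

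Promoters of 9 of the 10 genes were matched by symbol in RefSeq (build GRCm38.p6), as 10 sequences of 300 bases that run from 250 bases before the transcription start to 50 after it, since Cdkn1a has 2 starts in the table. They were searched on both strands for 6 motifs. The FOXO motif GTAAACA was in 3.65% of the 32851 mouse promoters of the table and the glucocorticoid receptor palindrome, GNACA and TGTNC with 3 bases between them, in 0.475%. The E-box CACGTG was in 7.15%, the cAMP response element TGACGTCA in 1.79%, the ATF4 motif TGATGNAA in 3.97% and the p53 half-site in 8.36%. No match overlapped another in the sequences shown. The sequences of 5 genes are given because they hold a motif or, for Ddit4, because that gene differed most between groups. Capitals mark the motif matches.
Trim63 (chr4:134314870-134315169, GRCm38.p6, plus strand): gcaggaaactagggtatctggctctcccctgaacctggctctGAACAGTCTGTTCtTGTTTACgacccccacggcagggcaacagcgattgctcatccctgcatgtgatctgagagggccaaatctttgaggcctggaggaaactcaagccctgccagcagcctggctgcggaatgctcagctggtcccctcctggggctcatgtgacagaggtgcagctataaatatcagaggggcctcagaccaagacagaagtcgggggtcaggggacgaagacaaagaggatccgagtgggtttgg
Klf15 (chr6:90462326-90462625, GRCm38.p6, plus strand): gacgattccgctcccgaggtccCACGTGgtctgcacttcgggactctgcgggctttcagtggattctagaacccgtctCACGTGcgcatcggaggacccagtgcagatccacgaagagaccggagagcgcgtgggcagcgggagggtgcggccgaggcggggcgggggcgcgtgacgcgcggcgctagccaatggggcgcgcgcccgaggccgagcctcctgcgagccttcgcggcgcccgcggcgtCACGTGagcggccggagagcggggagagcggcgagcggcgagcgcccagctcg
Cdkn1a, upstream start (chr17:29090729-29091028, GRCm38.p6, plus strand): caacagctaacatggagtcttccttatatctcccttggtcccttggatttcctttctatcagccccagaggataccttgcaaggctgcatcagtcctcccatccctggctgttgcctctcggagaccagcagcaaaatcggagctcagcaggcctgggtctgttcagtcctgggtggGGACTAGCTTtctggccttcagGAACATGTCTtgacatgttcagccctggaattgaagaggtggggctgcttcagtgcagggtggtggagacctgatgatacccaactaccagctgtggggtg
Eda2r (chrX:97377160-97377459, GRCm38.p6, minus strand): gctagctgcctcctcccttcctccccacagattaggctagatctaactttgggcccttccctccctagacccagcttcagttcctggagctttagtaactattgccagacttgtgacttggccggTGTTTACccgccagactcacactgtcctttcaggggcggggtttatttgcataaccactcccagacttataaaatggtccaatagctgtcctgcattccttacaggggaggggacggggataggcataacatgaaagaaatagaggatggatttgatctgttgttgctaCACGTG
Ddit4 (chr10:59951721-59952020, GRCm38.p6, minus strand): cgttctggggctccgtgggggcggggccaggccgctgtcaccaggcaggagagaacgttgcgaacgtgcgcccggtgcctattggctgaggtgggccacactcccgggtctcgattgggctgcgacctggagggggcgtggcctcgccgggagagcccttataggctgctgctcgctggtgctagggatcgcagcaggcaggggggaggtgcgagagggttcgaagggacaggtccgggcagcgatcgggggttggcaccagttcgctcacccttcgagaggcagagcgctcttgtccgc

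In the Trim63 promoter the palindrome GAACAGTCTGTTC lay 208 to 196 bases upstream of the start and was followed after 1 base by the FOXO motif on the opposite strand (TGTTTAC), 194 to 188 bases upstream. Both motifs occurred in 5 of the 32851 promoters (0.0152%). The Klf15 promoter held 3 E-boxes, and 29 promoters in all held 3 or more (0.0883%). The Cdkn1a sequence held 2 p53 half-sites, GGACTAGCTT at 73 to 64 and GAACATGTCT at 51 to 42 bases upstream of that start. Eda2r held the FOXO motif on the opposite strand 125 to 119 bases upstream and an E-box at the end of its window. No match to the 6 motifs was found in the windows of Fbxo30, Fbxo21, Foxo1, Foxo3 or Ddit4, which says only that these letters are not in these windows.

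Each library held 44603618 to 76970849 reads in genes, and all 12 markers of skeletal muscle fibres were detected in every group. AAV-GFP replicate 2 stood apart: it lay at 132 on the first principal component, which held 60.2% of the variance, against -59.2 to 61.7 for the other 8 libraries. The summed level of the 12 fibre markers was 177757 to 203569 CPM (the count scaled to a common library size after TMM adjustment) in AAV-GFP-MBNL1∆ muscle, 95469 to 161534 CPM in AAV-GFP muscle and 163843 to 204372 CPM in saline muscle. The 10 macrophage markers, all detected in each group, summed to 195 to 283 CPM in AAV-GFP-MBNL1∆ muscle, to 528, 2157 and 232 CPM in AAV-GFP replicates 1, 2 and 3, and to 104 to 131 CPM in saline muscle. The sum of 10 T cell markers, of which 9 were detected in saline muscle, lay between 7.03 and 17.5 CPM in AAV-GFP-MBNL1∆, between 7.15 and 92.8 CPM in AAV-GFP and between 0.893 and 1.35 CPM in saline libraries. That of 8 B and plasma cell markers lay between 31.6 and 97.8, between 3.06 and 953, and between 0.318 and 0.9752 CPM in the same order. Of these 8, Mzb1 and Igkc are listed at 0 in every library. The libraries also differed in sex-linked transcripts. Xist, made from the inactive X chromosome, was at 0.0182 to 0.0902 CPM in AAV-GFP-MBNL1∆, 106 to 136 CPM in AAV-GFP and 105 to 130 CPM in saline muscle, and the Y-linked Ddx3y was at 82.7 to 84.6, 0.487 to 2.58 and 0.409 to 0.693 CPM. Among the libraries with high Xist, AAV-GFP replicate 1 held some Y-linked RNA (Ddx3y 2.58, Eif2s3y 1.11 and Uty 0.741 CPM). Every contrast of AAV-GFP-MBNL1∆ with another group is also one of libraries with high and with low Y-linked transcripts, and the 2 cannot be told apart. In bulk muscle, fewer cells of a type and less RNA per cell cannot be told apart either.

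Per kilobase of exon, which allows levels to be compared between genes, Trim63 stood first and Fbxo32 second in every group. In AAV-GFP-MBNL1∆ muscle Trim63 averaged 57.6 ± 7.82 and Fbxo32 34.1 ± 1.88 CPM per kb, in AAV-GFP muscle 68.8 ± 3.05 and 32.1 ± 5.96, and in saline muscle 68.5 ± 3.55 and 42.8 ± 3.57 (SD, n = 3 each). The libraries of these 2 genes did not overlap within any group. Over all 9 libraries 97.0% of the 18501 tested genes with a known exon length had a lower level than Trim63 and 94.7% a lower one than Fbxo32. The other ligases were far below: Fbxo30 averaged 4.20, 3.47 and 3.33 CPM per kb in AAV-GFP-MBNL1∆, AAV-GFP and saline muscle, and Fbxo21 2.91, 2.05 and 2.33.

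The order below the 2 classical ligases differed between groups. In AAV-GFP-MBNL1∆ muscle Klf15 (9.95 ± 1.41 CPM per kb) and Ddit4 (9.66 ± 3.09) came next with overlapping libraries, followed by Cdkn1a, Foxo1, Fbxo30 and Foxo3 at 4.75 to 3.99 with each neighbour overlapping the next, and by Fbxo21 and Eda2r at 2.91 and 2.67. In AAV-GFP muscle Cdkn1a came next on average at 9.69 ± 6.12 CPM per kb, a mean with a range of 4.80 to 16.5, and overlapped Klf15 at 9.46 ± 2.42. Foxo3, Foxo1, Eda2r, Fbxo30 and Ddit4 followed at 4.62 to 3.47, again with overlapping neighbours, and Fbxo21 was last. In saline muscle Klf15 at 14.015 ± 1.33 and then Foxo3 at 5.48 ± 0.116 each stood clear of their neighbours in rank. Foxo3 (5.34 to 5.55) still overlapped Cdkn1a (up to 5.40) and Ddit4 (up to 5.71), which ranked further down. From Foxo1 at 4.86 ± 0.362 down through Cdkn1a, Ddit4, Fbxo30, Eda2r and Fbxo21, which was at 2.33 ± 0.194, each gene overlapped the next.

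**Figure D1:**
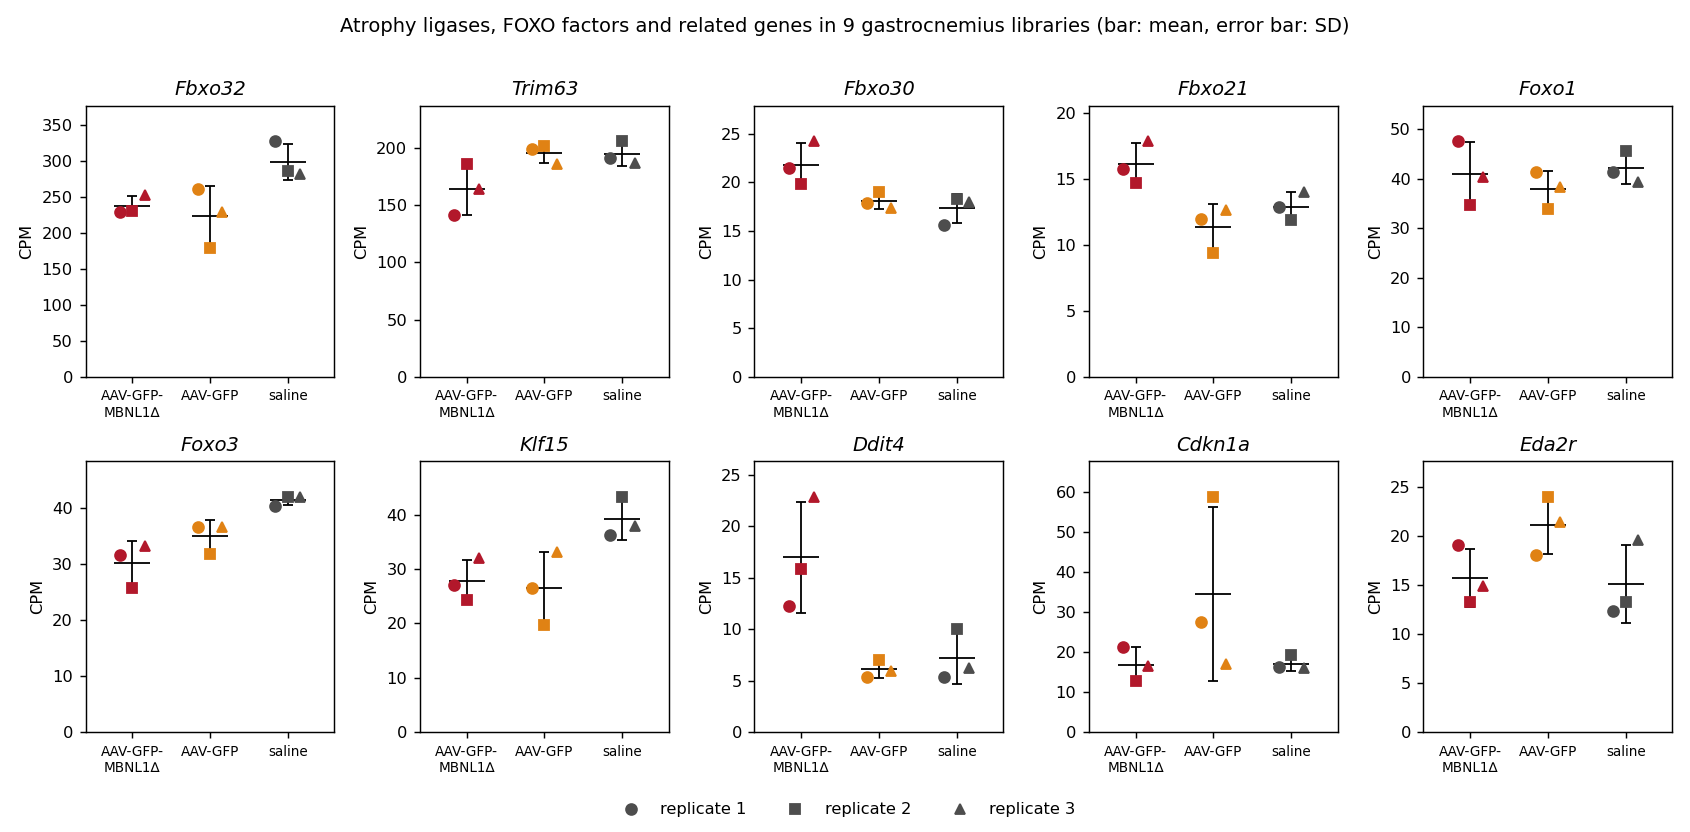
Level of each of the 10 genes in CPM (vertical axes, each from 0) in the 9 libraries, grouped as AAV-GFP-MBNL1∆, AAV-GFP and saline; symbols mark replicates, horizontal bars the mean and error bars the SD of 3 libraries. Ddit4 is higher in the 3 AAV-GFP-MBNL1∆ libraries (12.2 to 22.8 CPM) than in any other, and Cdkn1a is highest in AAV-GFP replicate 2 (58.8 CPM).

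Among the ligases of the 10 genes, Fbxo21 rose in AAV-GFP-MBNL1∆ muscle relative to AAV-GFP muscle. Fbxo32, Trim63 and Fbxo30 passed the test in none of the 3 comparisons. A call here is an adjusted p under 0.05 in edgeR's quasi-likelihood test, with p-values adjusted by the Benjamini-Hochberg method over all 18514 genes. Between AAV-GFP-MBNL1∆ and saline, 2 of the 10 genes were called (Ddit4 higher, Foxo3 lower), against 9.37% of all genes tested. Between AAV-GFP-MBNL1∆ and AAV-GFP, 2 of 10 were called (Ddit4 and Fbxo21, both higher), against 21.1% of all genes, so the share among the 10 was that of the background. Between AAV-GFP and saline no gene was called, of the 10 or of all 18514 (0%). The 3 comparisons share libraries pairwise, so their values are set side by side and are not independent of each other.

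Fbxo32, in mouse chromosome 15 (58175879 to 58214932, minus strand, mm10, the coordinates of GENCODE M21 here and below), encodes atrogin-1, the substrate-binding F-box subunit of an SCF ligase. It was at 229, 231 and 253 CPM in AAV-GFP-MBNL1∆ muscle, at 262, 179 and 230 CPM in AAV-GFP muscle and at 327, 287 and 282 CPM in saline muscle. All 6 vector-injected libraries lay below all 3 saline libraries, and the 2 vector groups overlapped. The log2 fold change was -0.33 ± 0.14 (SE; adjusted p = 0.187, edgeR) in AAV-GFP-MBNL1∆ against saline muscle and -0.42 ± 0.14 (adjusted p = 0.161) in AAV-GFP against saline muscle, neither past the threshold. Between AAV-GFP-MBNL1∆ and AAV-GFP it was 0.09, with a 95% interval of -0.24 to 0.41. The lowest library, AAV-GFP replicate 2, was also the lowest in summed fibre markers (95469 CPM). The part of those markers in the Fbxo32 level was not tested. An antisense gene, Gm15943, shares 186 exon bases with Fbxo32, and the strand setting of the counting is not given in the sources used here.

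Trim63 (chromosome 4, 134315120 to 134329629, plus strand) encodes MuRF1, a RING ligase of the sarcomere that marks thick-filament proteins. Its level was 142, 186 and 164 CPM in AAV-GFP-MBNL1∆ muscle, 199, 202 and 186 CPM in AAV-GFP muscle and 191, 206 and 187 CPM in saline muscle. The 3 AAV-GFP-MBNL1∆ libraries lay below saline, replicate 2 by less than 1 CPM, and that replicate overlapped AAV-GFP. Neither difference passed the test (log2 fold change -0.25 ± 0.11, adjusted p = 0.208 against saline, and -0.26 ± 0.11, adjusted p = 0.126 against AAV-GFP, edgeR). AAV-GFP and saline muscle differed by 0.01 on the log2 scale, with a 95% interval of -0.25 to 0.27, and the sign of that difference turned under DESeq2 size factors and upper-quartile scaling.

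The ratio of the 2 classical ligases was compared within each library. Log2 of Trim63 CPM over Fbxo32 CPM was -0.70, -0.31 and -0.63 in AAV-GFP-MBNL1∆ muscle, -0.40, 0.17 and -0.31 in AAV-GFP muscle and -0.78, -0.48 and -0.60 in saline muscle. All 3 AAV-GFP libraries were above all 3 saline libraries, a mean difference of 0.44 (exact two-sided permutation p = 0.1, the smallest that 3 against 3 libraries allow). AAV-GFP-MBNL1∆ muscle differed from saline by 0.07 (exact permutation p = 0.7) and from AAV-GFP by -0.37 (exact permutation p = 0.2).

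Fbxo30 (chromosome 10, 11281330 to 11298052, plus strand) encodes MUSA1, an F-box protein whose gene is induced in denervated muscle and held down by BMP signalling. It was at 21.4, 19.8 and 24.2 CPM in AAV-GFP-MBNL1∆ muscle, at 17.9, 19.0 and 17.3 CPM in AAV-GFP muscle and at 15.6, 18.3 and 18.0 CPM in saline muscle. Every AAV-GFP-MBNL1∆ library was above every library of the other groups. The log2 fold changes were 0.33 ± 0.10 against saline (adjusted p = 0.0721) and 0.27 ± 0.10 against AAV-GFP (adjusted p = 0.0781). Both missed the threshold in edgeR. Of 9 alternative settings 3 called the first and 2 the second, with DESeq2 calling both (adjusted p = 0.0238 and 0.0420). Leaving out 1 library, 1 of 9 fits called the first and 0 of 9 the second. Between AAV-GFP and saline the difference was 0.06, with a 95% interval of -0.17 to 0.29.

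Fbxo21 (chromosome 5, 117976730 to 118010201, plus strand) encodes SMART, another FOXO-dependent F-box protein of atrophying muscle. Its level was 15.8, 14.7 and 17.9 CPM in AAV-GFP-MBNL1∆ muscle, 11.98, 9.41 and 12.7 CPM in AAV-GFP muscle and 12.9, 11.9 and 14.02 CPM in saline muscle. The AAV-GFP-MBNL1∆ libraries were the 3 highest of the 9. Against AAV-GFP, Fbxo21 rose 1.42-fold (log2 fold change 0.51 ± 0.13, adjusted p = 0.0315, edgeR). Against saline the difference was 0.32 ± 0.13 (adjusted p = 0.165), and AAV-GFP and saline muscle differed by -0.19 (adjusted p = 0.398). The call against AAV-GFP was narrow: the adjusted p was 0.0779 when only those 2 groups were fitted, 0.0554 to 0.122 without any 1 of the 3 AAV-GFP-MBNL1∆ libraries, 0.0605 without AAV-GFP replicate 1, and 0.0560 and 0.0523 without saline replicate 1 or 2. Without AAV-GFP replicate 2, the library that stood apart, the rise was 1.31-fold (adjusted p = 0.0273).

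Of the FOXO factors, Foxo3 fell in AAV-GFP-MBNL1∆ muscle relative to saline muscle and Foxo1 passed no test. Foxo3 (chromosome 10, 42181841 to 42276755, minus strand) was at 31.6, 25.8 and 33.3 CPM in AAV-GFP-MBNL1∆ muscle, at 36.7, 31.7 and 36.7 CPM in AAV-GFP muscle and at 40.5, 41.9 and 42.0 CPM in saline muscle. All 6 vector-injected libraries were below all 3 saline libraries, and the 2 vector groups overlapped. Relative to saline it was 1.37-fold lower in AAV-GFP-MBNL1∆ muscle (log2 fold change -0.46 ± 0.11, adjusted p = 0.0310, edgeR), and in AAV-GFP muscle the difference was -0.24 ± 0.10 (adjusted p = 0.219). Between AAV-GFP-MBNL1∆ and AAV-GFP it was -0.21 ± 0.11 (adjusted p = 0.164). The call was lost without any 1 library of either group compared (adjusted p 0.0578 to 0.114) and without AAV-GFP replicate 1 (0.0534), while the log2 fold change stayed between -0.53 and -0.35. It was kept without AAV-GFP replicate 2 (0.00481) or 3 (0.0250). The marker sums of 2 other cell types were lower than saline in AAV-GFP-MBNL1∆ muscle without overlap. The endothelial sum was lower than saline without overlap in AAV-GFP muscle too. The 8 endothelial markers, all detected, summed to 295 to 363 CPM in AAV-GFP-MBNL1∆, 281 to 397 CPM in AAV-GFP and 414 to 447 CPM in saline muscle, and the 8 adipocyte markers, all detected, to 154 to 172, 248 to 302 and 233 to 336 CPM. Fabp4 made up most of the adipocyte sum, at 120, 163 and 143 CPM in AAV-GFP-MBNL1∆ and 219, 210 and 195 CPM in saline muscle. Of the other adipocyte markers, Adipoq, Lep, Plin1 and Retn did not overlap saline, while Cidec, Cfd and Pck1 did. Of the endothelial markers, Kdr and Vwf overlapped saline and the others did not. The sum of 8 fibro-adipogenic markers was higher than saline without overlap, at 1428 to 1690 CPM against 1211 to 1402 CPM. Of these markers Col3a1 alone was higher without overlap, while Pdgfra, Dpt and Pi16 were lower. The part of these cell types in the AAV-GFP-MBNL1∆ differences of the 10 genes was not tested.

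Foxo1 (chromosome 3, 52268336 to 52353221, plus strand) was at 47.6, 34.6 and 40.3 CPM in AAV-GFP-MBNL1∆ muscle, at 41.3, 33.9 and 38.4 CPM in AAV-GFP muscle and at 41.4, 45.5 and 39.4 CPM in saline muscle. The 3 groups overlapped. The log2 fold change was -0.04 against saline (95% interval -0.33 to 0.24) and 0.11 against AAV-GFP (-0.17 to 0.39) in AAV-GFP-MBNL1∆ muscle, and -0.15 (-0.44 to 0.13) in AAV-GFP against saline muscle. The antisense gene Gm20402 shares 674 exon bases with Foxo1.

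Klf15 (chromosome 6, 90462576 to 90475238, plus strand), a Krüppel-like factor induced by glucocorticoids that promotes amino acid breakdown, was at 27.1, 24.2 and 32.0 CPM in AAV-GFP-MBNL1∆ muscle. It was at 26.5, 19.6 and 33.1 CPM in AAV-GFP muscle and at 36.2, 43.3 and 37.9 CPM in saline muscle. As with Fbxo32 and Foxo3, all 6 vector-injected libraries lay below saline and the vector groups overlapped. The log2 fold changes against saline were -0.49 ± 0.18 (adjusted p = 0.129) in AAV-GFP-MBNL1∆ and -0.57 ± 0.18 (adjusted p = 0.145) in AAV-GFP muscle, neither past the threshold in edgeR. Between AAV-GFP-MBNL1∆ and AAV-GFP it was 0.08, with a 95% interval of -0.34 to 0.49. Without AAV-GFP replicate 3 the AAV-GFP difference from saline was -0.76 and passed the test (adjusted p = 0.0134), and it was -0.42 (adjusted p = 0.179) without replicate 2.

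Fbxo32, Foxo3 and Klf15 were thus the 3 of 10 genes whose AAV-GFP libraries did not overlap saline, against 27.1% of all genes tested, and all 3 were lower, against 12.4% (14.7% were higher). In AAV-GFP-MBNL1∆ against saline muscle the groups did not overlap for 7 of 10 genes, against 42.7% of all genes: Fbxo30, Fbxo21 and Ddit4 were higher, against 22.7% of all genes, and Fbxo32, Trim63, Foxo3 and Klf15 lower, against 20%. In AAV-GFP-MBNL1∆ against AAV-GFP muscle they did not overlap for 3 (Fbxo30, Fbxo21 and Ddit4, all higher), against 38.4%, and 19.2% for higher alone. The median log2 fold change of the 10 genes was -0.03, 0.08 and -0.17 in AAV-GFP-MBNL1∆ against saline, AAV-GFP-MBNL1∆ against AAV-GFP and AAV-GFP against saline, and that of all genes was 0.02, -0.06 and -0.01. In AAV-GFP against saline muscle 5 of the 10 had an unadjusted p under 0.05 in edgeR, against 22% of all genes. The number was 6 in AAV-GFP-MBNL1∆ against saline muscle, beside 26% of all genes, and 4 in AAV-GFP-MBNL1∆ against AAV-GFP muscle, beside 40.3%. For AAV-GFP against saline, DESeq2 and limma-voom also called none of the 10, with 9.21% and 0% of all genes called. Limma-voom with a weight per library called 3 (Cdkn1a, Eda2r and Klf15), with 29.5% of all genes called.

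**Figure D2:**
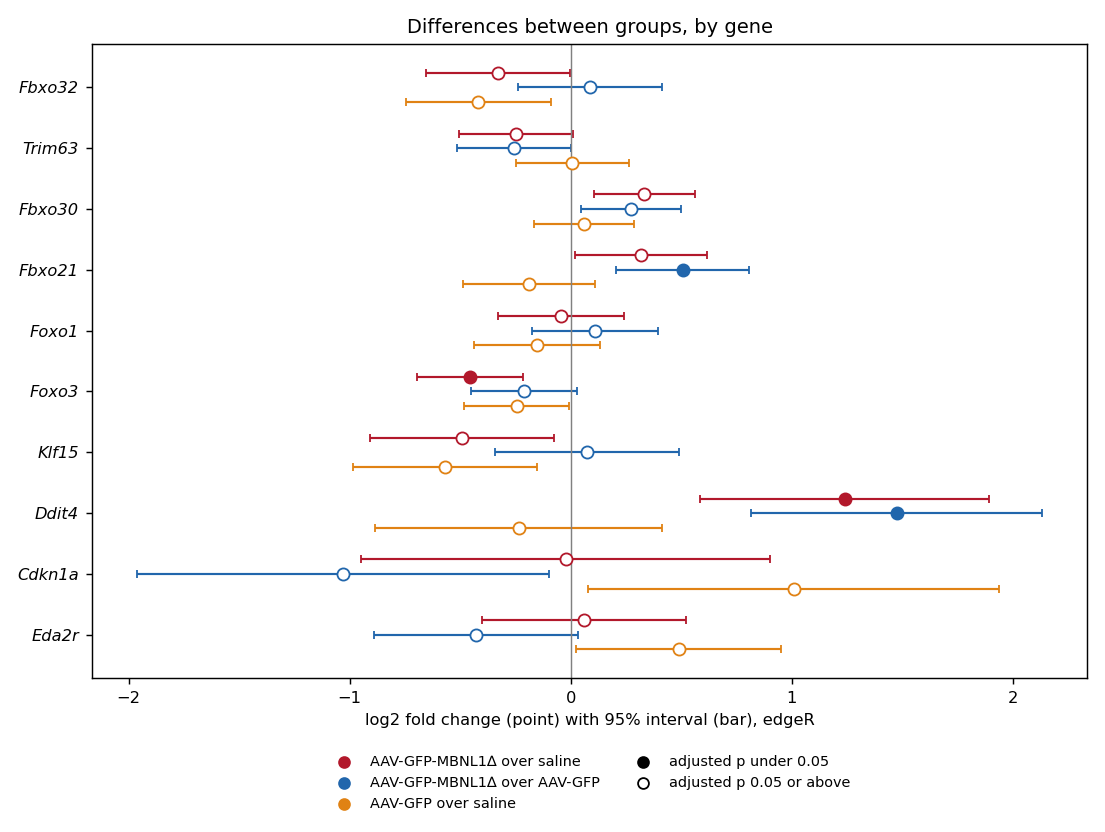
Log2 fold change of each gene (points) with its 95% interval (bars) from edgeR, for AAV-GFP-MBNL1∆ over saline, AAV-GFP-MBNL1∆ over AAV-GFP and AAV-GFP over saline; filled points have an adjusted p under 0.05. The 4 filled points are Ddit4 in both AAV-GFP-MBNL1∆ comparisons (1.24 and 1.47), Foxo3 against saline (-0.46) and Fbxo21 against AAV-GFP (0.51).

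Ddit4 showed the largest difference of the 10 genes. It encodes REDD1, a stress-induced inhibitor of mTORC1, the kinase complex that drives protein synthesis, and it lies on chromosome 10 (59949669 to 59951834, minus strand). Ddit4 was at 12.2, 15.8 and 22.8 CPM in AAV-GFP-MBNL1∆ muscle, at 5.38, 7.02 and 5.89 CPM in AAV-GFP muscle and at 5.33, 10.02 and 6.20 CPM in saline muscle. The AAV-GFP-MBNL1∆ libraries were the 3 highest of the 9. Ddit4 rose 2.36-fold against saline (log2 fold change 1.24 ± 0.29, 95% interval 0.59 to 1.89, adjusted p = 0.0327, edgeR) and 2.78-fold against AAV-GFP (1.47 ± 0.29, 0.82 to 2.13, adjusted p = 0.0137). Between AAV-GFP and saline the difference was -0.24 (adjusted p = 0.623). The call against AAV-GFP was kept in 8 of the 9 fits that each left out 1 library, and the adjusted p was 0.0514 without AAV-GFP-MBNL1∆ replicate 3. The call against saline was lost without AAV-GFP-MBNL1∆ replicate 2 or 3 (0.0836 and 0.106), AAV-GFP replicate 1 (0.0550) or saline replicate 1 or 3 (0.115 and 0.117), with a log2 fold change of 0.96 to 1.56 over the 9 fits.

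Cdkn1a (chromosome 17, 29090976 to 29100727, plus strand) encodes p21, the cyclin-dependent kinase inhibitor that p53 induces and that is also raised in denervated muscle. It was at 21.4, 12.8 and 16.4 CPM in AAV-GFP-MBNL1∆ muscle, at 27.4, 58.8 and 17.0 CPM in AAV-GFP muscle and at 16.2, 19.2 and 16.1 CPM in saline muscle. AAV-GFP replicate 2 was far above every other library, and replicate 3 was within the range of the other groups. The log2 fold change was -1.03 ± 0.41 (adjusted p = 0.0970) in AAV-GFP-MBNL1∆ against AAV-GFP muscle and 1.01 ± 0.41 (adjusted p = 0.205) in AAV-GFP against saline muscle, neither past the threshold in edgeR. Without AAV-GFP replicate 2 these were -0.39 (adjusted p = 0.297) and 0.35 (adjusted p = 0.574). Without AAV-GFP replicate 3 they were -1.38 and 1.34, and both passed the test (adjusted p = 0.0112 and 0.0196). In AAV-GFP-MBNL1∆ against saline muscle the difference was -0.02, with a 95% interval of -0.95 to 0.90.

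The order of Cdkn1a in the 3 AAV-GFP libraries was that of the summed macrophage markers, with replicate 2 highest (2157 CPM), replicate 1 next (528 CPM) and replicate 3 lowest (232 CPM). The B and plasma cell markers summed to 953, 253 and 3.06 CPM in the same 3 libraries. Of 6 satellite cell markers 5 were detected, with Cdh15 listed at 0 in every library. Vcam1, which other cells express too, was at 38.6, 17.8 and 7.15 CPM in the same 3 libraries, while Chodl was at 4.84, 8.6 and 8.43 CPM and Pax7 at 1.33, 1.23 and 1.04 CPM. The part of these cells in the Cdkn1a level was not tested. An unclassified transcript on the opposite strand, AC167363.2, shares 273 exon bases with Cdkn1a.

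**Figure D3:**
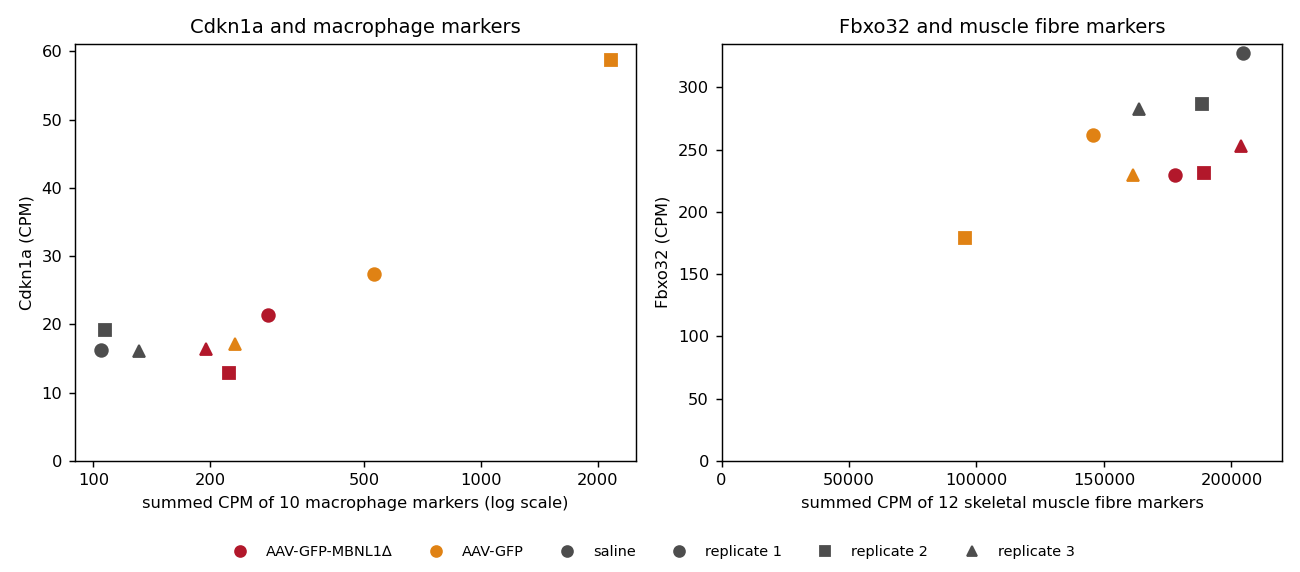
Left, Cdkn1a (CPM) against the summed CPM of 10 macrophage markers (log axis); right, Fbxo32 (CPM) against the summed CPM of 12 muscle fibre markers; each point is 1 of the 9 libraries. AAV-GFP replicate 2 (square) is at the extreme of both panels, with 58.8 CPM of Cdkn1a at 2157 CPM of macrophage markers and 179 CPM of Fbxo32 at 95469 CPM of fibre markers.

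Eda2r (X chromosome, 97333840 to 97377216, minus strand) encodes the receptor of ectodysplasin A2, which p53 induces and which has been tied to muscle loss in cancer cachexia. It was at 19.1, 13.3 and 14.8 CPM in AAV-GFP-MBNL1∆ muscle, at 18.1, 24.0 and 21.4 CPM in AAV-GFP muscle and at 12.4, 13.3 and 19.6 CPM in saline muscle. The groups overlapped in every comparison. The log2 fold change was 0.06 (95% interval -0.40 to 0.52) against saline and -0.43 ± 0.20 (adjusted p = 0.149) against AAV-GFP in AAV-GFP-MBNL1∆ muscle. In AAV-GFP against saline muscle it was 0.49 ± 0.20 (adjusted p = 0.213, edgeR). Eda2r is X-linked, and Xist was at 0.0182 to 0.0902 CPM in the AAV-GFP-MBNL1∆ libraries. For Eda2r, as for every gene in the contrasts of that group, the vector and the sex of the libraries cannot be told apart.

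AAV-GFP replicate 2 also enters the comparison of AAV-GFP-MBNL1∆ with saline, since all 9 libraries share 1 estimate of the spread. Without it, 6 of the 10 genes were called there, against 21.7% of 18682 genes: Fbxo30 (log2 fold change 0.31, adjusted p = 0.0324), Fbxo21 (0.30, adjusted p = 0.0445) and Ddit4 (1.22, adjusted p = 0.0272) were higher. Fbxo32 (-0.35, adjusted p = 0.0216), Foxo3 (-0.47, adjusted p = 0.00481) and Klf15 (-0.51, adjusted p = 0.0151) were lower. When only the AAV-GFP-MBNL1∆ and saline libraries were fitted, 6 were called, against 25.7% of 17811 genes. None of the 10 was called without AAV-GFP-MBNL1∆ replicate 2 or 3, AAV-GFP replicate 1 or saline replicate 1 or 3. In those fits 2.63% to 6.08% of all genes were called.

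The genes whose pattern over the 9 libraries was most like that of a called gene were found by the mean absolute difference of gene-centred log2 CPM, among 11948 other protein-coding genes. For Ddit4 they were Gadd45g (0.13), Slc16a3 (0.21), a lactate transporter, and Morn4 (0.24). Gadd45g averaged 37.8 ± 16.2 CPM in AAV-GFP-MBNL1∆, 14.2 ± 1.56 CPM in AAV-GFP and 17.8 ± 4.57 CPM in saline muscle, and Slc16a3 298 ± 34.1, 103 ± 4.22 and 131 ± 22.1 CPM (SD, n = 3 each). For Fbxo21 they were Cnst, Nipal3 and Zfp358 (0.04 each), and for Foxo3 Nfatc3 (0.04), Pdgfrb (0.04) and Mid2 (0.05). Nfatc3 averaged 44.5 ± 6.74, 52.6 ± 3.997 and 60.3 ± 3.07 CPM in AAV-GFP-MBNL1∆, AAV-GFP and saline muscle.

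The pathways around these genes were read from 10 lists of 246 distinct genes, of which 240 were tested. In AAV-GFP-MBNL1∆ against AAV-GFP muscle the genes called in 3 ubiquitin system lists were all higher, beside 21.1% of all genes called in either direction. Of 28 other muscle ubiquitin ligases, 6 rose and none fell, of 21 ubiquitin genes and conjugating or deubiquitinating enzymes 7 rose and none fell, and of 33 proteasome genes 5 rose and none fell, against 10.8% of all genes higher and 10.3% lower. The median log2 fold changes were 0.21, 0.29 and 0.12, and that of all genes was -0.06. Against saline 3, 2 and 2 genes of these lists rose and none fell, against 4.76% higher and 4.6% lower, with medians of -0.01, 0.17 and 0.11 beside 0.02 for all genes. Leaving out 1 library, 1 to 7, 1 to 7 and 1 to 5 genes of the 3 lists were called against AAV-GFP, with 1 each without AAV-GFP-MBNL1∆ replicate 3, and 1 to 6, 0 to 4 and 1 to 3 against saline, with the highest counts without AAV-GFP replicate 2. Over 9 other alternatives the counts against AAV-GFP were 2 to 12, 1 to 13 and 1 to 18, with 5, 3 and 2 under the replicate block. The summed fibre markers were at 177757 to 203569 CPM in AAV-GFP-MBNL1∆ and 95469 to 161534 CPM in AAV-GFP muscle, without overlap. The part of fibre content in the calls of these 3 lists was not tested. In AAV-GFP against saline muscle none of the 240 genes was called. Without AAV-GFP replicate 3, 12 genes of the EDA2R, TWEAK and cytokine list, 9 of the p53 list, 5 of the glucocorticoid list, 3 of the autophagy list, 2 of the FOXO list and 2 of the denervation list were.

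Among the other ligases Asb5, a SOCS-box protein of cullin ligases, rose to 279, 284 and 335 CPM in AAV-GFP-MBNL1∆ muscle, against 140, 123 and 135 CPM in AAV-GFP muscle and 166, 138 and 135 CPM in saline muscle. Its 3 AAV-GFP-MBNL1∆ libraries stood clear of the other 6. The fold was 2.04 against saline (adjusted p = 0.00215, edgeR) and 2.26 against AAV-GFP (adjusted p = 0.00110), and both calls held without any 1 library. Trim54, the MuRF3 relative of Trim63, rose 1.37-fold against saline (adjusted p = 0.0420) and 1.52-fold against AAV-GFP (adjusted p = 0.0119). Nedd4l rose 1.53-fold (adjusted p = 0.0230) and 1.59-fold (adjusted p = 0.0123), and Stub1, the chaperone-linked ligase CHIP, 1.36-fold against AAV-GFP (adjusted p = 0.0181). Leaving out 1 library at a time, the calls of Trim54, Nedd4l and Stub1 against AAV-GFP held in 8, 8 and 7 of 9 fits, each being lost without AAV-GFP-MBNL1∆ replicate 3 and that of Stub1 also without AAV-GFP replicate 1 (adjusted p up to 0.0563, 0.0569 and 0.0662). That of Trim54 against saline held in 2 of 9, being lost without any AAV-GFP-MBNL1∆ or saline library or AAV-GFP replicate 1 (up to 0.152). That of Nedd4l held in 5 of 9, being lost without AAV-GFP-MBNL1∆ replicate 1 or 3 or saline replicate 2 or 3 (up to 0.0912).

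Of the deubiquitinating enzymes, Usp2 averaged 417 ± 41.5 CPM in AAV-GFP-MBNL1∆, 193 ± 35.4 CPM in AAV-GFP and 253 ± 29.8 CPM in saline muscle (SD, n = 3 each). It rose 2.15-fold against AAV-GFP (adjusted p = 0.00454, kept in all 9 fits that left out 1 library) and 1.64-fold against saline (adjusted p = 0.0279, lost without any AAV-GFP-MBNL1∆ or saline library, up to 0.117). Usp19 rose 1.33-fold, and the conjugating enzymes Ube2o and Ube2g1 1.31- and 1.42-fold, against AAV-GFP (adjusted p = 0.0302, 0.0264 and 0.0377). Usp19 was not called without any AAV-GFP-MBNL1∆ or saline library (up to 0.104), Ube2o without AAV-GFP-MBNL1∆ replicate 1 or 3 or AAV-GFP replicate 1 (up to 0.102), and Ube2g1 without any AAV-GFP-MBNL1∆ or saline library or AAV-GFP replicate 1 (up to 0.126). Ube2j1 rose 1.53-fold against saline (adjusted p = 0.0465), and was lost without the same 7 libraries as Ube2g1 (up to 0.155). Among the proteasome genes Psmd8, a subunit of the regulatory lid, was at 182, 193 and 163 CPM in AAV-GFP-MBNL1∆, at 88.5, 118 and 97.5 CPM in AAV-GFP and at 81.9, 88.8 and 92.1 CPM in saline muscle. It rose 1.77-fold against AAV-GFP (adjusted p = 0.00492) and 2.04-fold against saline (adjusted p = 0.00233), in all 9 such fits. Psma6, a core subunit, rose 1.29-fold and 1.25-fold (adjusted p = 0.0198 and 0.0412), and Psmb7 and Psmd3 rose 1.302- and 1.22-fold against AAV-GFP (adjusted p = 0.0307 and 0.0364). The Psma6 call against AAV-GFP was lost without AAV-GFP-MBNL1∆ replicate 2 or 3 or AAV-GFP replicate 1 (up to 0.0696), and that against saline was kept without AAV-GFP replicate 2 alone (up to 0.141). Psmb7 was lost without AAV-GFP-MBNL1∆ replicate 2 or 3, AAV-GFP replicate 1 or saline replicate 1 or 2 (up to 0.0943), and Psmd3 was kept without AAV-GFP replicate 2 or saline replicate 3 alone (up to 0.114).

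**Figure D4:**
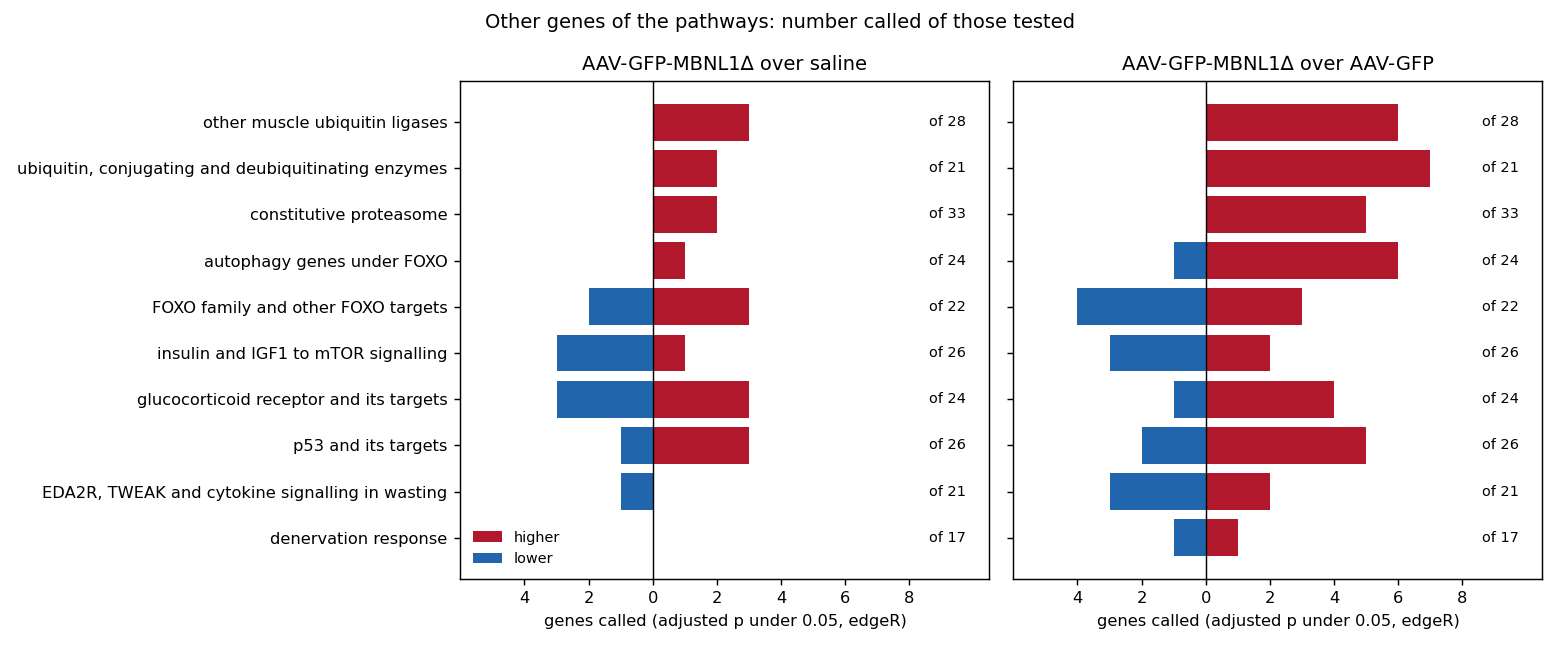
Number of genes called higher (right of 0) and lower (left of 0) in each of 10 pathway lists, with the number tested at the right, for AAV-GFP-MBNL1∆ over saline and over AAV-GFP (edgeR, adjusted p under 0.05). The ubiquitin ligase, ubiquitin enzyme and proteasome lists hold calls on the higher side alone, 6 of 28, 7 of 21 and 5 of 33 against AAV-GFP; without AAV-GFP-MBNL1∆ replicate 3 each of these counts was 1.

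Of 24 autophagy genes under FOXO, 6 rose and 1 fell against AAV-GFP, and 1 rose and none fell against saline, beside 21.1% and 9.37% of all genes called. The count was 2 to 11 and 1 to 4 leaving out 1 library, highest without AAV-GFP replicate 3 against AAV-GFP and without AAV-GFP replicate 2 against saline. Map1lc3a, which encodes the autophagosome protein LC3A, was at 139, 157 and 144 CPM in AAV-GFP-MBNL1∆ muscle, at 60.1, 65.9 and 74.0 CPM in AAV-GFP muscle and at 66.4, 70.4 and 75.5 CPM in saline muscle. It rose 2.20-fold against AAV-GFP (adjusted p = 0.000627) and 2.07-fold against saline (adjusted p = 0.000865, edgeR), and both calls held without any 1 library. Ulk1, the kinase that starts autophagy, rose 1.75-fold (adjusted p = 0.00925) and Depp1, a FOXO-induced regulator of autophagy, 1.91-fold (adjusted p = 0.0139) against AAV-GFP. Ctsl, the lysosomal protease cathepsin L and a classical atrophy gene, was 1.53-fold lower there (adjusted p = 0.0245), at 72.9 ± 0.289 CPM in AAV-GFP-MBNL1∆ and 111 ± 22.9 CPM in AAV-GFP muscle. The call of Ulk1 held without any 1 library, that of Depp1 was lost without AAV-GFP-MBNL1∆ replicate 2 or 3 (up to 0.0597) and that of Ctsl without any AAV-GFP-MBNL1∆ library (up to 0.0926).

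Of 22 other FOXO family genes and targets, 3 rose and 4 fell against AAV-GFP, and 3 rose and 2 fell against saline, beside 21.1% and 9.37% of all genes called. The count was 3 to 7 and 2 to 8 leaving out 1 library, with the same 2 libraries giving the highest counts as for autophagy. Irs2, an insulin receptor substrate, was at 59.0, 38.4 and 55.7 CPM in AAV-GFP-MBNL1∆, at 22.0, 18.0 and 18.3 CPM in AAV-GFP and at 20.6, 21.5 and 21.5 CPM in saline muscle, 2.62-fold higher than AAV-GFP (adjusted p = 0.00145) and 2.41-fold higher than saline (adjusted p = 0.00255). Mstn, which encodes myostatin, the brake on muscle growth, rose to 135, 134 and 153 CPM in AAV-GFP-MBNL1∆ muscle, against 50.6, 34.0 and 54.5 CPM in AAV-GFP and 74.0, 70.4 and 48.3 CPM in saline muscle. The fold was 3.04 against AAV-GFP (adjusted p = 0.00305) and 2.19 against saline (adjusted p = 0.0131). Sesn1, a sestrin that restrains mTORC1, fell to 21.2, 20.6 and 23.2 CPM in AAV-GFP-MBNL1∆, against 44.96, 34.0 and 47.0 CPM in AAV-GFP and 53.8, 36.5 and 49.6 CPM in saline muscle, 1.93-fold (adjusted p = 0.00820) and 2.15-fold (adjusted p = 0.00593) lower. Irs2 and Sesn1 kept both calls without any 1 library, as did Mstn that against AAV-GFP, and Mstn lost that against saline without AAV-GFP-MBNL1∆ replicate 3 or saline replicate 2 (adjusted p up to 0.0607). Sesn3 was 1.32-fold lower than saline (adjusted p = 0.0287), a call lost without AAV-GFP-MBNL1∆ replicate 2 or 3, AAV-GFP replicate 1 or any saline library (up to 0.102). Klf4, a Krüppel-like factor, was 1.73-fold higher than AAV-GFP (adjusted p = 0.0260), lost without AAV-GFP-MBNL1∆ replicate 1 or 3 or AAV-GFP replicate 1 or 2 (up to 0.0917).

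In the insulin and IGF1 to mTOR pathway, upstream of FOXO, 2 of 26 genes rose and 3 fell against AAV-GFP, and 1 rose and 3 fell against saline. The share against AAV-GFP was near the 21.1% of all genes called, and 9.37% were called against saline. Leaving out 1 library the count was 2 to 7 in both comparisons, highest without AAV-GFP replicate 3 against AAV-GFP and without AAV-GFP replicate 2 against saline. Pik3r1, the regulatory subunit of PI3 kinase, fell to 35.2, 28.5 and 30.7 CPM in AAV-GFP-MBNL1∆ muscle, against 56.5, 52.2 and 51.2 CPM in AAV-GFP and 61.0, 60.0 and 54.9 CPM in saline muscle. That was 1.70-fold lower than AAV-GFP (adjusted p = 0.00233) and 1.87-fold lower than saline (adjusted p = 0.00127), without exception when 1 library was left out. Igfbp3, an IGF-binding protein, was 1.60-fold and 1.79-fold lower (adjusted p = 0.00771 and 0.00408), also in all such fits. Igf1r, the IGF1 receptor, was 1.26-fold and 1.302-fold lower (adjusted p = 0.0159 and 0.0139). Its call against AAV-GFP was lost without any AAV-GFP-MBNL1∆ library or AAV-GFP replicate 1 (up to 0.0695), and that against saline without AAV-GFP-MBNL1∆ replicate 2 or 3 or any saline library (up to 0.0728). Akt2, a kinase that phosphorylates FOXO factors, was 1.497-fold and 1.33-fold higher (adjusted p = 0.0104 and 0.0446). The first call was lost without AAV-GFP-MBNL1∆ replicate 3 (0.0535) and the second without any AAV-GFP-MBNL1∆ or saline library or AAV-GFP replicate 1 (up to 0.161).

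Of 24 genes of the glucocorticoid receptor and its targets, 4 rose and 1 fell against AAV-GFP, a share near the 21.1% of all genes called. Against saline 3 rose and 3 fell, beside 9.37% of all genes. The count was 3 to 12 and 1 to 9 leaving out 1 library, highest without AAV-GFP replicate 3 against AAV-GFP and without AAV-GFP replicate 2 against saline. Sgk1, a kinase related to AKT, rose to 315, 342 and 280 CPM in AAV-GFP-MBNL1∆ muscle, against 134, 127 and 132 CPM in AAV-GFP and 174, 208 and 132 CPM in saline muscle, 2.38-fold (adjusted p = 0.00274) and 1.82-fold (adjusted p = 0.0139). Fkbp5, the receptor's co-chaperone, was at 87.8, 48.5 and 63.7 CPM in AAV-GFP-MBNL1∆, at 16.8, 24.0 and 14.7 CPM in AAV-GFP and at 18.3, 28.6 and 13.25 CPM in saline muscle, 3.60-fold higher than AAV-GFP (adjusted p = 0.0110). Per1, a clock gene, rose 1.94-fold against AAV-GFP (adjusted p = 0.0146, lost without AAV-GFP-MBNL1∆ replicate 3 at 0.0657). Nr3c1, the receptor itself, averaged 109 ± 3.10 CPM in AAV-GFP-MBNL1∆ and 175 ± 23.2 CPM in saline muscle (SD, n = 3 each), 1.61-fold lower (adjusted p = 0.0173, lost without any AAV-GFP-MBNL1∆ library or saline replicate 1 or 2, up to 0.0780). Errfi1, an inhibitor of EGF receptor signalling, was 1.68-fold higher than saline (adjusted p = 0.0127, lost without AAV-GFP-MBNL1∆ replicate 3 or saline replicate 1 or 3, up to 0.0620). Ampd3, an AMP deaminase raised in atrophy, fell to 14.8, 11.1 and 15.2 CPM in AAV-GFP-MBNL1∆ muscle, against 36.8, 29.9 and 38.6 CPM in AAV-GFP and 36.1, 28.4 and 49.4 CPM in saline muscle, 2.56-fold (adjusted p = 0.00644) and 2.77-fold (adjusted p = 0.00579) lower. The calls of Fkbp5 and Ampd3 held in all 9 fits that left out 1 library, and that of Sgk1 against saline was lost without AAV-GFP-MBNL1∆ replicate 2 or saline replicate 1 (up to 0.0620).

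Of 26 genes of p53 and its targets, the pathway of Cdkn1a and Eda2r, 5 rose and 2 fell against AAV-GFP, and 3 rose and 1 fell against saline, beside 21.1% and 9.37% of all genes called. The count was 4 to 15 and 3 to 6 leaving out 1 library, highest without AAV-GFP replicate 3 in both. Perp, a membrane protein of p53-dependent cell death, was at 19.5, 24.6 and 18.0 CPM in AAV-GFP-MBNL1∆ muscle, at 6.46, 7.44 and 5.34 CPM in AAV-GFP muscle and at 5.49, 5.10 and 4.82 CPM in saline muscle. It rose 3.22-fold against AAV-GFP (adjusted p = 0.000740) and 4.03-fold against saline (adjusted p = 0.000351). Polk, a translesion DNA polymerase, rose 2.50-fold and 2.24-fold (adjusted p = 0.00103 and 0.00195), and Ei24 1.59-fold and 1.43-fold (adjusted p = 0.00287 and 0.00926). Gadd45b, a stress-response gene, fell to 4.90, 5.02 and 6.80 CPM in AAV-GFP-MBNL1∆ muscle, against 12.6, 16.9 and 13.04 CPM in AAV-GFP and 14.6, 14.9 and 11.6 CPM in saline muscle, 2.54-fold (adjusted p = 0.00302) and 2.45-fold (adjusted p = 0.00408) lower. These calls held without any 1 library, apart from Ei24 against saline, which was lost without AAV-GFP-MBNL1∆ replicate 3 or saline replicate 2 (up to 0.0518).

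Of 21 genes of EDA2R, TWEAK and cytokine signalling, 2 rose and 3 fell against AAV-GFP, a share near the 21.1% of all genes called, and none rose and 1 fell against saline, beside 9.37%. The count was 1 to 13 and 1 to 4 leaving out 1 library, highest without AAV-GFP replicate 3 against AAV-GFP and without AAV-GFP replicate 2 against saline. The gene that fell in both was Edar, the receptor of the other ectodysplasin form, at 0.1203, 0.127 and 0.1199 CPM in AAV-GFP-MBNL1∆, 0.638, 0.511 and 0.465 CPM in AAV-GFP and 0.664, 0.833 and 0.455 CPM in saline muscle. It was 4.36-fold lower than AAV-GFP (adjusted p = 0.00415) and 5.24-fold lower than saline (adjusted p = 0.00279). These levels are near the floor: 1 read was 0.0134 to 0.01705 CPM in the AAV-GFP-MBNL1∆ libraries before TMM adjustment. Tnfrsf12a, the TWEAK receptor, averaged 8.64 ± 2.51 CPM in AAV-GFP-MBNL1∆ and 20.97 ± 9.77 CPM in AAV-GFP muscle, 2.43-fold lower (adjusted p = 0.0357). Its call was lost without any AAV-GFP-MBNL1∆ or saline library and without AAV-GFP replicate 2 (up to 0.123). Acvr2a, a myostatin and activin receptor, and Lifr, a cytokine receptor, rose 1.69-fold and 1.34-fold against AAV-GFP (adjusted p = 0.0255 and 0.0243), both lost without AAV-GFP-MBNL1∆ replicate 1 or 3 (up to 0.0933 and 0.0988).

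Of 17 genes of the denervation response, 1 rose and 1 fell against AAV-GFP and none was called against saline, beside 21.1% and 9.37% of all genes called. The count was 0 to 7 and 0 to 4 leaving out 1 library, highest without AAV-GFP replicate 3 against AAV-GFP and without AAV-GFP replicate 2 against saline. Myog, the transcription factor that drives Fbxo32 and Trim63 in denervated muscle, fell to 14.1, 12.7 and 9.74 CPM in AAV-GFP-MBNL1∆ muscle, against 19.7, 31.5 and 20.2 CPM in AAV-GFP muscle, and was at 20.5, 17.1 and 19.5 CPM in saline muscle. The fall against AAV-GFP was 1.95-fold (adjusted p = 0.0167, lost without AAV-GFP-MBNL1∆ replicate 2 or 3, up to 0.0703). Musk, the kinase of the neuromuscular junction, rose 1.67-fold against AAV-GFP (adjusted p = 0.0182, lost without AAV-GFP-MBNL1∆ replicate 1 or 3, up to 0.0795). Against saline Musk was at 36.6 ± 3.26 CPM in AAV-GFP-MBNL1∆ and 24.4 ± 4.91 CPM in saline muscle (adjusted p = 0.0549) and Chrna1, a subunit of the acetylcholine receptor, at 35.0 ± 2.76 and 19.5 ± 0.0511 CPM (adjusted p = 0.0753), neither past the threshold. Without AAV-GFP replicate 2 or 3 both passed it.

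The list genes named next had the smallest p-values of their lists in AAV-GFP against saline muscle. Runx1, Socs3, Pmaip1, Cdkn2a, Tnf, Mt1 and Mt2 were highest in AAV-GFP replicate 2, next in replicate 1 and lowest, near saline, in replicate 3. Runx1 was at 22.0, 48.7 and 8.88 CPM in AAV-GFP muscle and at 6.25, 5.98 and 6.35 CPM in saline muscle (adjusted p = 0.0932), Socs3 at 25.3, 45.6 and 7.75 CPM and at 4.79, 5.74 and 6.07 CPM (adjusted p = 0.0932), and Mt2 at 27.9, 82.1 and 2.26 CPM and at 1.83, 2.88 and 1.72 CPM (adjusted p = 0.0940). That is the order of the immune marker sums in the AAV-GFP libraries, whose part in these levels was not tested, and all 7 passed the test without AAV-GFP replicate 3. Fbxo31, Ubr2, Usp19, Usp2, Ulk1, Mtor and Hdac4 had lower means in AAV-GFP muscle and Atg7, Gadd45a, Eif4ebp1, Fst, Psma7 and Psmb2 higher ones, with log2 fold changes of -0.52 (Fbxo31) to 0.73 (Gadd45a) and adjusted p-values of 0.140 to 0.217, edgeR. Fbxo31, an F-box gene, averaged 92.1 ± 18.4 CPM in AAV-GFP and 132 ± 13.04 CPM in saline muscle (SD, n = 3 each). Of these 13, Atg7 and Gadd45a passed the test without AAV-GFP replicate 3 and none did without any other 1 library. Gadd45a had the order of the 7 genes above, at 24.5, 38.8 and 16.8 CPM in AAV-GFP replicates 1, 2 and 3. It was at 19.0, 15.3 and 14.2 CPM in saline muscle. Atg7 (11.7, 19.4 and 11.3 CPM) and Psma7 (89.4, 116 and 88.9 CPM) were also highest in replicate 2 and lowest, by little, in replicate 3. The part of immune cells in these levels was not tested either.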

How the data were processed

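The deposited files hold whole-number read counts per gene, a table for each of the 9 gastrocnemius libraries. The labels' protocols name Trizol extraction, a DNase step and a KAPA mRNA kit with 250 ng of input. The submitters' processing notes list cutadapt 2.10, STAR 2.7.5a, HTSeq 0.12.4, DESeq2 1.30.0 and mm10. The gene annotation and strandedness of the counting were not given in the sources used here. Of all reads, 16.8% to 18.3% fell in 5 rows that name no gene, which entered neither library sizes nor tests.

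Symbols, positions and exon lengths were taken from GENCODE M21, in which 55141 identifiers were found and 260 were not, and promoters from RefSeq (GRCm38.p6). Depth was 44603618 to 76970849 counts a library. One edgeR 4.0.16 model (R 4.3.3; TMM scaling, robust quasi-likelihood F test) held all 9 libraries with a mean for each group, and p-values were adjusted by Benjamini-Hochberg over 18514 genes per comparison. Its biological coefficient of variation was 0.232, on 6 residual degrees of freedom. The code was tested on simulated counts. Alternatives were DESeq2 1.42.0, limma 3.58.1, other scalings, filters and sample sets, a replicate block and each library left out. The log2 ligase ratio was compared by an exact two-sided permutation test.

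Members, marker lists, pathway lists and tests were chosen with earlier results of these data known. Up to 4 called genes with the smallest p are named per list and comparison, or 2 genes where none was called. For each called member the 3 genes most alike are named, among protein-coding genes with a mean of at least 1 CPM.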

Additional observations from a re-analysis of the deposited data

How the results depend on the processing

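Of the 540 alternative values of the 30 log2 fold changes of the 10 genes, 471 kept direction and side of the threshold, 26 passed it newly, 20 no longer passed it and 23 changed sign. The number of genes called moved most. In AAV-GFP-MBNL1∆ against saline muscle it was 1734, and 4584 with only those 2 groups fitted, 2889 with DESeq2, 5458 with limma-voom and library weights and 500 to 4047 leaving out 1 library; of the 10 genes 2 were called, and 6, 3, 7 and 0 to 6 under those settings. In AAV-GFP-MBNL1∆ against AAV-GFP muscle it was 3914, and 1159 with only the 2 groups, 9294 with library weights and 826 to 6649 leaving out 1 library; 2 of the 10 genes were called, and 1, 6 and 0 to 3, and 4 with DESeq2. In AAV-GFP against saline muscle it was 0, and 99 with the replicate block, 1705 with DESeq2, 5464 with library weights and 0 to 3262 leaving out 1 library (highest without AAV-GFP replicate 3); 0 of the 10 genes were called, and 3 with library weights and 0 to 2 leaving out 1 library. The weight was 0.122 for AAV-GFP replicate 2 and 6.58 for AAV-GFP replicate 1, so that fit rests largely on the second.

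The log2 ratio of Trim63 to Fbxo32 in AAV-GFP-MBNL1∆ against saline muscle was 0.07, and -0.044 to 0.148 leaving out 1 library (-0.044 without AAV-GFP-MBNL1∆ replicate 2, -0.0074 without saline replicate 1). Signs turned for differences near 0: Trim63 in AAV-GFP against saline muscle was -0.000604 with DESeq2 size factors, -0.045 with upper-quartile scaling, -0.00053 with DESeq2 and -0.041 to 0.051 leaving out 1 library. Leaving out 1 library, Fbxo30 there was -0.013 to 0.099 and Ddit4 -0.42 to 0.077. In AAV-GFP-MBNL1∆ against saline muscle Foxo1 was -0.17 to 0.063, Cdkn1a -0.23 to 0.14 and Eda2r -0.10 to 0.29. In AAV-GFP-MBNL1∆ against AAV-GFP muscle Fbxo32 was -0.042 to 0.22 (-0.096 with library weights), Foxo1 -0.0085 to 0.22 and Klf15 -0.095 to 0.24. The cause of these changes was not tested.

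The correlations do not settle whether the replicate numbers pair the libraries. Deviations of same-numbered libraries correlated at -0.0824 to 0.446, and not every library correlated best with its own number. Between AAV-GFP-MBNL1∆ and AAV-GFP, replicates 2 and 3 did (0.168 and 0.446, against at most -0.0161 and -0.0539 with another number). Replicate 1 did not (0.0728 against 0.278). Between AAV-GFP and saline only replicate 1 did, and between AAV-GFP-MBNL1∆ and saline none did. With the replicate block 1412 genes were called in AAV-GFP-MBNL1∆ against saline and 2837 against AAV-GFP muscle. The same genes of the 10 were called, with an adjusted p of 0.0319 for Foxo3 and 0.0247 for Ddit4 against saline and of 0.0175 for Fbxo21 and 0.0134 for Ddit4 against AAV-GFP, and the log2 fold change of Cdkn1a against saline was 0.012. Of the 1524 alternative values of the named list genes 1312 kept their side of the threshold, 165 no longer passed it, 47 passed it newly and none changed sign. Of 540 alternative list counts 181 moved by over 1.5 times.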
